A study of Mus musculus with 8 samples.

Results

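Glycolysis and the response to low oxygen were followed through 35 genes, chosen by name for their function, among the 34070 genes of a table of read counts from mouse epidermis. Each name was matched to the identifier of its protein-coding gene in the GENCODE M21 annotation of mouse genome build GRCm38, and all 35 were found and had enough counts to be tested. The set holds 8 enzymes of the upper part of glycolysis, 6 of the lower part, 3 transporters of glucose or lactate, 3 regulators of glycolytic flux, 12 hypoxia response targets, and the oxygen-regulated factor Hif1a with 2 of the prolyl hydroxylases that control it. RNA came from epidermal cell suspensions of adult mice, 18 to 25 weeks old, taken at zeitgeber time 4, that is 4 h after the start of the light phase. In Bmal1cKO (4 libraries) both copies of Bmal1, the gene of a core transcription factor of the circadian clock listed as Arntl, were floxed. In Bmal1WT (4 libraries) both copies were wild type, and in both groups the Cre recombinase was driven by the keratin 14 promoter, so that cells of the suspension that never expressed keratin 14 keep the gene. The labels give neither the deleted exons nor the sex nor whether each library comes from a separate mouse, so the p-values describe variation among 8 libraries, part of which may be technical.

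Glycolysis splits glucose into pyruvate, which either enters the mitochondria or is turned into lactate and exported. Epidermis has no blood vessels of its own and is known for making much lactate even where oxygen is present. When oxygen falls, the HIF1A protein is no longer marked for destruction by prolyl hydroxylases, pairs with ARNT, and switches on glycolytic enzymes, glucose and lactate transporters, Vegfa and other targets through a short DNA core. BMAL1 belongs to the same family of transcription factors and, paired with CLOCK, binds a related site, the E-box.

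Total counts were 35685261 to 50396156 per library. Arntl was at 46.1, 42.0, 49.1 and 48.7 CPM (read counts relative to the library total, scaled by the TMM method) in Bmal1WT replicates 1 to 4 and at 32.0, 34.4, 37.6 and 30.7 CPM in Bmal1cKO replicates 1 to 4. All 4 Bmal1cKO libraries lay below all 4 Bmal1WT libraries, but the gene did not pass the test over all genes (log2 fold change -0.47 ± 0.08 SE, edgeR adjusted p = 0.0611). It passed with the replicate number as a block (edgeR adjusted p = 0.0358) and with DESeq2 (adjusted p = 5.96e-05, 5.96e-05 to 0.693 over the alternatives). Markers of basal keratinocytes summed to 18878 to 20509.5 CPM in Bmal1WT and 20332 to 22144 CPM in Bmal1cKO, against at most 3.62 CPM for endothelial and 113 CPM for dermal fibroblast markers. Xist, the RNA of the inactive X chromosome, was present in replicates 1 and 3 of each group, and Y-linked genes in replicates 2 and 4. Bmal1cKO replicate 3 stood apart for many of the 35 genes, and the changes of direction without it are given with the genes concerned. In bulk RNA, fewer cells of a type and less RNA per cell cannot be told apart.

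The DNA core bound by HIF factors, ACGTG or GCGTG, was searched on both strands in RefSeq promoters (GRCm38.p6, 250 bases before to 50 after each transcription start), together with the E-box CACGTG, which contains ACGTG on each strand and so counts under both. Of the 35 genes, 33 had a promoter in that table, Bnip3l and Ndrg1 being the others. ACGTG stood in a promoter of 25 of the 33 genes (75.8%), against 21.8% of 27025 genes with a promoter and 28.0% of the 11305 of them that were tested for expression. ACGTG or GCGTG stood in 30 of 33 (90.9%, against 46.7% and 65.4%), and CACGTG in 7 of 33 (21.2%, against 8.09% and 11.3%). A gene counted if any of its starts had a match, and the 33 genes had 47 promoters. The genes were chosen by function, hypoxia response targets among them, so the higher share of the HIF core may follow from that choice. The 150 bases before the start are shown for the 4 genes with the smallest unadjusted p and for Bnip3 and P4ha1, which were far higher in 1 Bmal1cKO library, with each ACGTG or GCGTG, on either strand, in capitals.
Ldha, chr7:46845654-46845803, plus strand: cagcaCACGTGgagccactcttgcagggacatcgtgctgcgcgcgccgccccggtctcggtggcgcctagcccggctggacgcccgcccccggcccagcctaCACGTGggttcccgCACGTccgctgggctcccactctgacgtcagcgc
Pdk1, chr2:71873074-71873223, plus strand: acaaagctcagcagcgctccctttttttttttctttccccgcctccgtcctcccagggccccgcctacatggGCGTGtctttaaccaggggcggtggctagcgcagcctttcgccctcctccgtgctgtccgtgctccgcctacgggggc
Slc16a3, chr11:120948917-120949066, plus strand: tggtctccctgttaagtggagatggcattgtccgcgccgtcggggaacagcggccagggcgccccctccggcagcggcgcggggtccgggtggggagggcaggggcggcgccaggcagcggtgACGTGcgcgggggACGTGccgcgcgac
Car12, chr9:66713536-66713685, plus strand: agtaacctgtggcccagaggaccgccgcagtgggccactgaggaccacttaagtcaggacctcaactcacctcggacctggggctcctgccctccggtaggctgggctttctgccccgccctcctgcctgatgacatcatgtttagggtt
Bnip3, chr7:138909507-138909656, minus strand: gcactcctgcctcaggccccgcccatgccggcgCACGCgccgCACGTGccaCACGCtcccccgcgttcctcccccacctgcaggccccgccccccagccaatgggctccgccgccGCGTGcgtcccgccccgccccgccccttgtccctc
P4ha1, chr10:59323146-59323295, plus strand: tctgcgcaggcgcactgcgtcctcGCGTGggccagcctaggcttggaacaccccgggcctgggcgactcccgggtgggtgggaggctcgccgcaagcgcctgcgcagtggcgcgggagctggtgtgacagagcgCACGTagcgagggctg

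The Ldha window holds the E-box letters CACGTG at 2 places and a further ACGTG on the minus strand, whereas the Car12 window holds no copy of either core. In the Bnip3 window, the E-box letters lie between a pair of GCGTG matches read on the strand opposite to the printed one. A match is a run of letters and not a measured binding site, and the absence of a match concerns only these windows. Ldha and Pdk1 have a further start in the RefSeq table, whose window is not shown.

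None of the 35 genes passed the test for a difference between the genotypes. The call required an edgeR quasi-likelihood adjusted p under 0.05 over all 19646 genes tested, which 34 genes met (0.173%), 17 higher in Bmal1cKO (0.0865%) and 17 lower (0.0865%). An unadjusted edgeR p under 0.05 was met by 4 of the 35, against 1631 of the 19646 genes tested (8.30%). Pdk1, Ldha and Slc16a3 were higher in Bmal1cKO and Car12 was lower, against 884 genes higher and 747 lower among all genes tested. DESeq2 called 1 of the 35, Car12, against 1.28% of the genes that it tested. With edgeR, 0 of the 35 were called with the replicate number as a block (0.774% of all genes), with the Xist class as a covariate (0.606%), and 0 with limma's voom (0.148%). The libraries of the groups did not overlap for 2 of 35 genes (5.71%), against 5.15% of all genes tested, so this share was near the background. Pdk1 was the gene higher in Bmal1cKO (2.64% of all genes) and Car12 the gene lower (2.51%). Without Bmal1cKO replicate 1 the number was 7 (20%), against 9.57% of all genes in the same 7 libraries. With any other library left out it was 2 or 3 (5.71% or 8.57%), against 7.11% to 9.26% of all genes.

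The signs leaned to higher levels in Bmal1cKO. The log2 fold change was positive for 27 of the 35 genes (77.1%) and for 47.0% of all genes tested, with medians of 0.11 and -0.01. Without Bmal1cKO replicate 3 it was positive for 19 of the 35, with a median of 0.03. Single values ran from -0.40 for Car12 to 0.62 for Slc16a3. The 95% interval of the difference lay within 1.5-fold in either direction for 24 genes and within 2-fold for 32, and reached past 2-fold for Slc16a3, Vegfa and Car9.

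**Figure D1:**
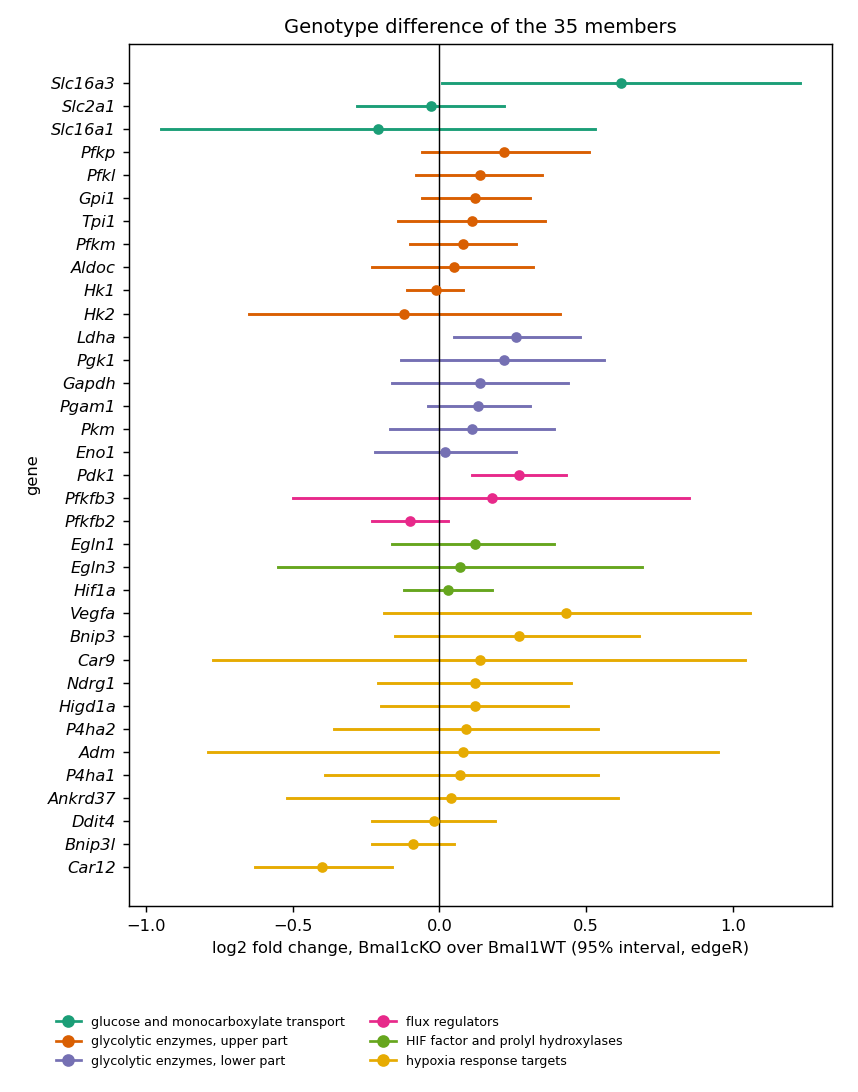
Points give the log2 fold change, Bmal1cKO over Bmal1WT, of each of the 35 genes and lines its 95% interval from edgeR (4 libraries per group), coloured by role. The intervals of Car12, Pdk1, Ldha and Slc16a3 leave out 0, and those of Slc16a3, Car9, Adm, Slc16a1 and Vegfa are among the wide ones.

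In the upper part of glycolysis, from glucose to the triose phosphates, 6 of the 8 enzymes had a positive and 2 a negative log2 fold change, none past the threshold, with a median of 0.10. From here on, values per library are CPM listed for replicates 1 to 4 of each group, means are given ± SD (n = 4) and log2 fold changes ± SE. Hk2, the inducible hexokinase, was at 19.7, 24.6, 15.6 and 23.9 CPM in Bmal1WT and 13.9, 14.5, 20.2 and 28.7 CPM in Bmal1cKO. Its groups overlapped, and Bmal1cKO held both the lowest library (replicate 1) and the highest (replicate 4) (log2 fold change -0.12 ± 0.23, edgeR adjusted p = 0.949). Hk1, the other hexokinase of the set, was nearly flat, with all 8 libraries between 103 and 112 CPM (log2 fold change -0.01 ± 0.04, edgeR adjusted p = 0.975). Gpi1, phosphoglucose isomerase, was at 199, 229, 187 and 220 CPM in Bmal1WT and 203, 224, 250.1 and 234 CPM in Bmal1cKO. Its lowest library was Bmal1WT replicate 3 and its highest Bmal1cKO replicate 3, with overlapping groups (log2 fold change 0.12 ± 0.08, edgeR adjusted p = 0.767).

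Phosphofructokinase commits sugar to glycolysis and is built from liver (Pfkl), muscle (Pfkm) and platelet (Pfkp) type subunits. Pfkp was at 268, 275, 259 and 248 CPM in Bmal1WT and 246, 296, 398 and 283 CPM in Bmal1cKO. Replicate 3 stood far above the other Bmal1cKO libraries, of which replicate 1 lay below all of Bmal1WT (log2 fold change 0.22 ± 0.13, edgeR adjusted p = 0.717, log2 fold change 0.07 without Bmal1cKO replicate 3). Pfkl (log2 fold change 0.14 ± 0.10, edgeR adjusted p = 0.776) and Pfkm (log2 fold change 0.08 ± 0.08, edgeR adjusted p = 0.870) were also highest in Bmal1cKO replicate 3. Aldoc, aldolase C, and Tpi1, triosephosphate isomerase, gave log2 fold changes of 0.05 ± 0.12 and 0.11 ± 0.11, with edgeR adjusted p of 0.966 and 0.873. Without Bmal1cKO replicate 3 the value of Aldoc was -0.06, and that of Hk1 was 0.00.

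All 6 enzymes of the lower part, from glyceraldehyde phosphate to lactate, had a positive log2 fold change, with a median of 0.14 and none past the threshold. Ldha, which reduces pyruvate to lactate (chr7:46841475-46855627, plus strand), was at 222, 273, 225 and 248 CPM in Bmal1WT and 252, 282, 329.5 and 298 CPM in Bmal1cKO. Bmal1cKO replicates 2, 3 and 4 lay above all Bmal1WT libraries, and replicate 1 fell inside their range. The means were 242 ± 23.9 CPM in Bmal1WT and 291 ± 32.3 CPM in Bmal1cKO (log2 fold change 0.26 ± 0.09, edgeR adjusted p = 0.480, 0.257 to 0.839 over the alternatives), and the log2 fold change was 0.20 without Bmal1cKO replicate 3. Pgam1, phosphoglycerate mutase, was at 125, 151, 129 and 139 CPM in Bmal1WT and 133, 148, 161 and 154 CPM in Bmal1cKO, with Bmal1cKO replicates 3 and 4 above all of Bmal1WT (log2 fold change 0.13 ± 0.08, edgeR adjusted p = 0.722). Pkm, the pyruvate kinase gene, was at 325, 456, 317 and 406 CPM in Bmal1WT and 356, 394, 441 and 428 CPM in Bmal1cKO. Here the spread within Bmal1WT exceeded that between the groups (log2 fold change 0.11 ± 0.12, edgeR adjusted p = 0.900), and counts per gene do not separate its alternatively spliced forms.

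Pgk1, phosphoglycerate kinase, gave a log2 fold change of 0.22 ± 0.15 and Gapdh, glyceraldehyde phosphate dehydrogenase, of 0.14 ± 0.13, with edgeR adjusted p of 0.787 and 0.867. Eno1, enolase, had the smallest value of the 6 (log2 fold change 0.02 ± 0.11, edgeR adjusted p = 0.988, log2 fold change -0.02 without Bmal1cKO replicate 3). Values of these enzymes are uncertain because processed copies of them sit elsewhere in the genome. With reads of 51 bases, 71.9% of the 51-base stretches of the longest coding transcript of Eno1 occur in other genes, as do 67.9% for Pgk1, 41.4% for Pgam1, 29.8% for Pkm, 27.0% for Gapdh and 15.9% for Ldha. For other members the share was 23.2% for Bnip3l, 21.6% for Bnip3, 9.95% for Gpi1, 7.38% for Higd1a and 7.19% for Tpi1. Gapdh shares a stretch with 211 pseudogenes, and 22.8% of its stretches occur in 10 or more other genes. Gapdh was at 25.2 ± 2.90 CPM in Bmal1WT, below the other enzymes of this part, and the sources used here do not say how reads that match several places were counted.

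Among the transporters, the lactate exporter Slc16a3 and the lactate carrier Slc16a1 had log2 fold changes of opposite sign, neither past the threshold. Slc16a3 (chr11:120948480-120960868, plus strand) was at 10.1, 9.62, 10.2 and 8.36 CPM in Bmal1WT and 8.58, 11.5, 24.4 and 14.5 CPM in Bmal1cKO. Bmal1cKO replicates 2, 3 and 4 lay above all Bmal1WT libraries, replicate 1 lay inside their range, and replicate 3 was 2.55 times the Bmal1WT mean. The log2 fold change was 0.62 ± 0.27 (95% interval 0.01 to 1.23, edgeR adjusted p = 0.588), and 0.27 without Bmal1cKO replicate 3. Slc16a1 was at its lowest, 6.37 CPM, in that same library and at its highest, 18.6 CPM, in Bmal1WT replicate 2 (log2 fold change -0.21 ± 0.33, edgeR adjusted p = 0.933). In both groups it was lower with Xist, at 6.37 to 9.89 CPM in those 4 libraries, against 11.9 to 18.6 CPM in the 4 without. Slc2a1, the glucose transporter GLUT1, was at 119.7, 125, 110.3 and 122 CPM in Bmal1WT and 123, 88.4, 125 and 131 CPM in Bmal1cKO. Bmal1cKO replicate 2 lay below the other 7 libraries, and the means were close (log2 fold change -0.03 ± 0.11, edgeR adjusted p = 0.979).

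Pdk1, a kinase that switches off pyruvate dehydrogenase and so holds pyruvate back from oxidation in the mitochondria, had higher values in every Bmal1cKO library than in any Bmal1WT library. It lies at chr2:71873224-71903858, plus strand, and was at 88.9, 91.9, 79.0 and 75.1 CPM in Bmal1WT and 94.1, 104, 102 and 105 CPM in Bmal1cKO. The groups did not overlap and were apart by 1.21-fold between the means of 83.7 ± 7.96 CPM in Bmal1WT and 101 ± 4.73 CPM in Bmal1cKO. The gene did not pass the threshold (log2 fold change 0.27 ± 0.07, edgeR adjusted p = 0.283, DESeq2 adjusted p = 0.0528, 0.0528 to 0.839 over the alternatives). The log2 fold change was 0.27 without Bmal1cKO replicate 3, 0.23 in the 4 libraries with Xist and 0.32 in the 4 without. Pfkfb2 and Pfkfb3 make and break down the sugar bisphosphate that activates phosphofructokinase. Pfkfb2 was at 75.2, 77.8, 77.5 and 73.8 CPM in Bmal1WT and 69.6, 78.7, 68.6 and 67.1 CPM in Bmal1cKO, with 3 of the 4 Bmal1cKO libraries below all of Bmal1WT (log2 fold change -0.10 ± 0.06, edgeR adjusted p = 0.720). Pfkfb3 reached 37.0 CPM in Bmal1cKO replicate 3, against 13.3 to 22.4 CPM in the other 7 libraries (log2 fold change 0.18 ± 0.30, edgeR adjusted p = 0.936, log2 fold change -0.21 without that library).

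**Figure D2:**
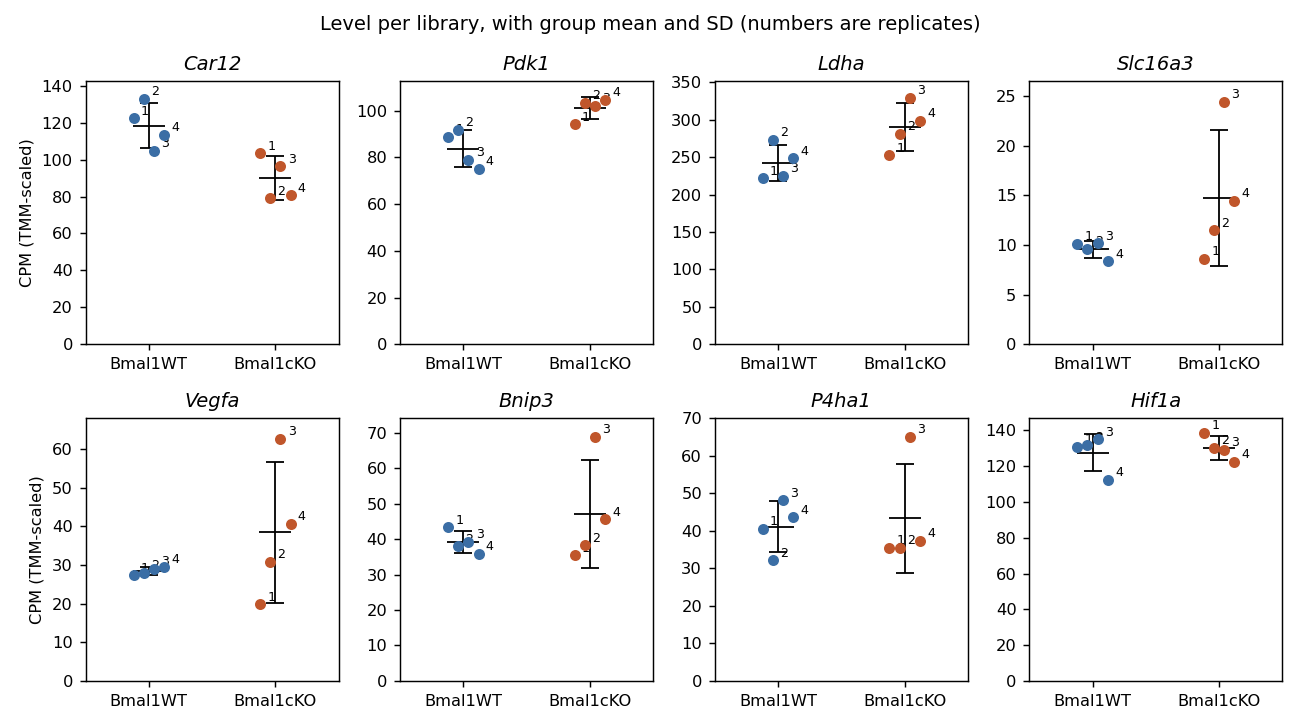
Each panel gives the CPM of a gene in the 4 Bmal1WT and 4 Bmal1cKO libraries as points numbered by replicate, with the group mean and SD in black and the axis from 0. The groups are apart for Car12 and Pdk1, whereas for Slc16a3, Vegfa, Bnip3 and P4ha1 the highest point is Bmal1cKO replicate 3.

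Of the 12 hypoxia response targets, 9 had a positive and 3 a negative log2 fold change, none past the threshold, with a median of 0.08. Car12, a membrane carbonic anhydrase that helps to handle acid (chr9:66713686-66766845, plus strand), was lower in value. It was at 122, 133, 105 and 113 CPM in Bmal1WT and 103, 79.1, 96.4 and 80.7 CPM in Bmal1cKO. All 4 Bmal1cKO libraries lay below all 4 Bmal1WT libraries, with means of 118 ± 12.2 CPM in Bmal1WT and 89.9 ± 11.96 CPM in Bmal1cKO. The log2 fold change was -0.40 ± 0.10 (95% interval -0.63 to -0.16, edgeR adjusted p = 0.275), and only DESeq2 called it (adjusted p = 0.0429, 0.0429 to 0.859 over the alternatives). It was -0.18 in the 4 libraries with Xist and -0.62 in the 4 without, and the test of this difference is given with the Xist results. Car9, the carbonic anhydrase often used as a hypoxia marker, was low throughout, at 0.724 to 2.86 CPM, with Bmal1cKO replicate 3 the highest (log2 fold change 0.14 ± 0.40, edgeR adjusted p = 0.971, log2 fold change -0.40 without that library).

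Vegfa, the growth factor that draws in blood vessels (chr17:46016993-46032369, minus strand), was at 27.4, 28.0, 29.1 and 29.5 CPM in Bmal1WT and 19.8, 30.8, 62.7 and 40.6 CPM in Bmal1cKO. Bmal1WT was tight and Bmal1cKO wide, with replicate 1 below and replicates 2, 3 and 4 above all Bmal1WT libraries (log2 fold change 0.43 ± 0.28, edgeR adjusted p = 0.759, log2 fold change 0.10 without Bmal1cKO replicate 3). Bnip3, a receptor for the removal of mitochondria, was at 43.4, 38.1, 39.3 and 35.9 CPM in Bmal1WT and 35.5, 38.3, 68.9 and 45.7 CPM in Bmal1cKO. Replicate 3 again stood above the rest, and the log2 fold change of 0.27 ± 0.19 (edgeR adjusted p = 0.778) became 0.03 without it. Its relative Bnip3l was at 112, 127, 116 and 114 CPM in Bmal1WT and 109, 101, 118 and 113 CPM in Bmal1cKO, with overlapping groups and a narrow range (log2 fold change -0.09 ± 0.06, edgeR adjusted p = 0.774).

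P4ha1 and P4ha2, catalytic subunits of the enzyme that hydroxylates collagen, gave log2 fold changes of 0.07 ± 0.21 and 0.09 ± 0.20 (edgeR adjusted p of 0.969 and 0.959). Without Bmal1cKO replicate 3 both turned negative, at -0.18 and -0.16. P4ha1 was at 40.6, 32.2, 48.1 and 43.7 CPM in Bmal1WT and 35.5, 35.5, 65.0 and 37.4 CPM in Bmal1cKO, where replicate 3 of Bmal1cKO lies above the other 7 libraries. Ndrg1 (log2 fold change 0.12 ± 0.15, edgeR adjusted p = 0.902), Higd1a, a mitochondrial protein induced by hypoxia (log2 fold change 0.12 ± 0.14, edgeR adjusted p = 0.901), and Ankrd37 (log2 fold change 0.04 ± 0.25, edgeR adjusted p = 0.988) were also highest in that library. Without it their log2 fold changes were 0.03, -0.02 and -0.20, so that Higd1a and Ankrd37 turned negative. Ddit4, an inhibitor of mTOR signalling, was close between the groups (log2 fold change -0.02 ± 0.10, edgeR adjusted p = 0.983, log2 fold change 0.03 without Bmal1cKO replicate 3). Adm, the vasodilator peptide adrenomedullin, had few counts, 457 over all libraries, and a wide interval (95% interval of the log2 fold change -0.79 to 0.95, edgeR adjusted p = 0.986). Ankrd37 shares 57 exonic bases with Ufsp2 on the opposite strand, which had 845% of its counts, and the sources used here do not say whether counting used the strand. Pfkm, which shares 18 exonic bases with Senp1, and Pfkp, which shares 748 with Pitrm1, are less certain for the same reason. Pfkfb2 shares 1262 exonic bases with Gm29427 and Pkm 767 with Gm49759 on the same strand, which counting by strand would not separate, and Pfkfb2 shares 154 more with Yod1 on the opposite strand.

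Hif1a, the oxygen-regulated subunit itself, did not differ beyond the spread of the libraries. It was at 131, 132, 135 and 112 CPM in Bmal1WT and 139, 130.3, 129 and 122 CPM in Bmal1cKO, with overlapping groups and a log2 fold change of 0.03 ± 0.07 (95% interval -0.12 to 0.18, edgeR adjusted p = 0.959). HIF1A is controlled mainly at the protein level, which these counts do not measure. Egln1 and Egln3, prolyl hydroxylases that mark it for destruction and are induced by hypoxia themselves, gave log2 fold changes of 0.12 ± 0.12 and 0.07 ± 0.28 (edgeR adjusted p of 0.882 and 0.979). Without Bmal1cKO replicate 3 they were -0.01 and -0.14. Egln3 ran from 28.9 CPM in Bmal1cKO replicate 1 to 74.9 CPM in Bmal1cKO replicate 3, so that Bmal1cKO alone spanned the whole range.

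The clearest pattern among the 35 genes lay between libraries of the same genotype. Bmal1cKO replicate 3 was the highest of the 8 libraries for 21 genes (60%, against 14.5% of all genes tested), and Bmal1cKO replicate 1 was the lowest for 14 (40%, against 11.4%). For the hypoxia response targets the median log2 level, relative to each gene's mean over all libraries, was 0.54 in Bmal1cKO replicate 3 and -0.30 in Bmal1cKO replicate 1, and -0.13 to 0.00 in Bmal1WT. All 12 had a larger SD of log2 level in Bmal1cKO than in Bmal1WT, as did 27 of the 35 genes (77.1%) and 48.2% of all genes tested. Without Bmal1cKO replicate 3, 10 of the 12 still had the larger SD in Bmal1cKO, against 41.4% of all genes. These are descriptions of 4 libraries per group, with no test.

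**Figure D3:**
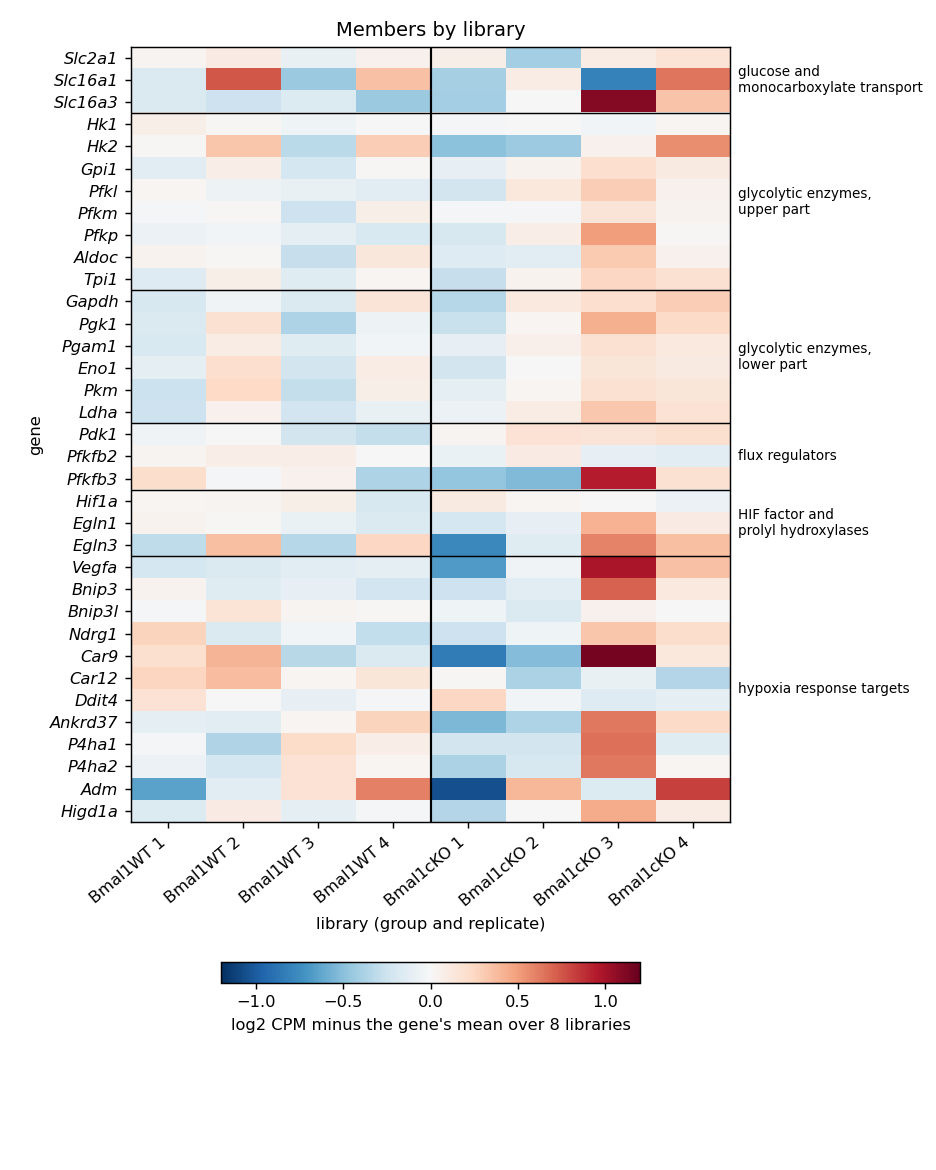
Colours give the log2 CPM of each of the 35 genes (vertical axis, grouped by role) in each library (horizontal axis), minus the gene's mean over the 8 libraries. The column of Bmal1cKO replicate 3 is mostly red and that of replicate 1 mostly blue, with Car12, Ddit4, Hif1a and Slc16a1 among the genes that depart from this.

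**Figure D4:**
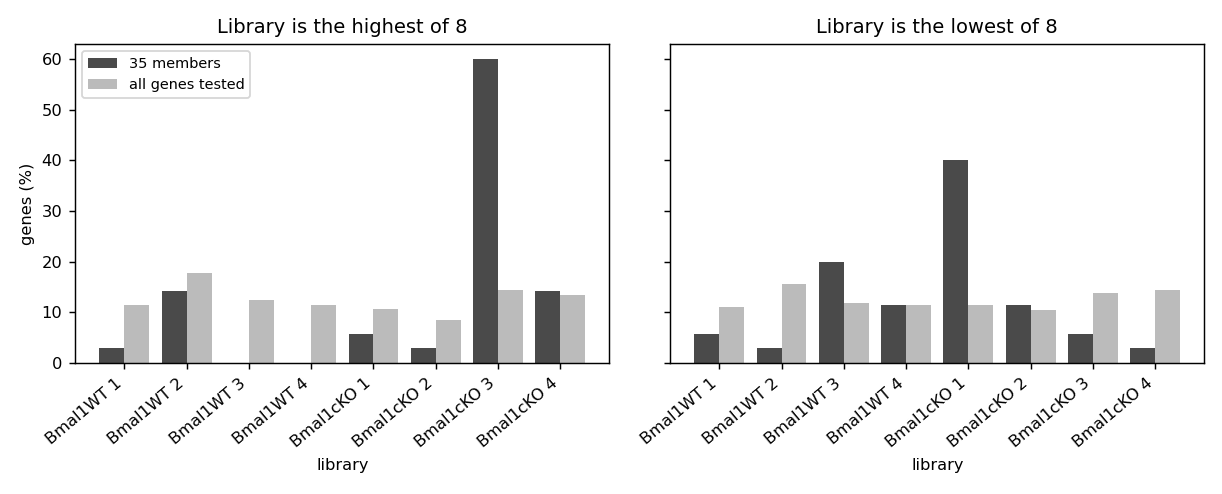
Bars give the percentage of genes for which each library is the highest (left) or the lowest (right) of the 8, for the 35 genes (dark) and for all genes tested (light). Bmal1cKO replicate 3 reaches 60% on the left and Bmal1cKO replicate 1 reaches 40% on the right, while the light bars stay between 8.48% and 17.8%.

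Markers of other cells or states were read in the same libraries. The 9 markers of differentiated keratinocytes summed to 12195 CPM in Bmal1cKO replicate 3, against 16133 to 18575 CPM in the other Bmal1cKO libraries and 16751 to 25352 CPM in Bmal1WT. The 6 Langerhans cell markers summed to 494 CPM there, but these markers were high in all 4 libraries with Xist (381 and 461 CPM in Bmal1WT and 391 CPM in Bmal1cKO replicate 1) and at 90.3 to 293 CPM in the 4 without. The 5 epidermal T cell markers found summed to 132 CPM in Bmal1cKO replicate 3, against 83.1 to 105 CPM in the other 7 libraries. Cd3e, Cd3g and Ptprc were highest in that library. Thy1, the largest part of the sum, was at 67.7 CPM there and highest in Bmal1cKO replicate 2, at 81.8 CPM. Cd3d was highest in Bmal1WT replicate 1. Mitochondrial genes took 4.59% of the counts of Bmal1cKO replicate 3 and 2.65% of those of Bmal1cKO replicate 1, with 2.92% to 4.68% in Bmal1WT. No marker of these 3 lists was at 0 in all libraries and none was called between the genotypes (0 genes by edgeR). Their part in the pattern was not tested.

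A different split appeared within Bmal1WT. All 6 enzymes of the lower part of glycolysis were lower in both libraries with Xist (replicates 1 and 3) than in both libraries without it, as were 14 of the 35 genes (40%) and 22.1% of all genes tested. The opposite order held for 4 of the 35 (11.4%) and 23.8% of all genes. Krt1, a keratin of differentiated keratinocytes, split the same way in Bmal1WT, at 1872 and 1759 CPM with Xist and 6116 and 4099.6 CPM without. It kept this order in Bmal1cKO, at 1732 and 1276 CPM with Xist and 3351 and 2397 CPM without, where the lower enzymes did not. Of the other differentiated keratinocyte markers, Krt10 and Krtdap had this order in Bmal1WT, Lor and Ivl the opposite order, and the rest neither. Lor was at 137 and 496 CPM with Xist and 122 and 80.9 CPM without. The Langerhans cell sums given above were higher with Xist. The part of these markers in the split was not tested. In Bmal1cKO the Xist libraries were both lower for 4 of the 35 (11.4%, against 21.0% of all genes) and for 0 of the 6 lower enzymes. Of the 35 genes, Pgk1 lies on the X chromosome and the others do not. Pkm had means of 321 CPM with Xist and 431 CPM without it in Bmal1WT, and 398 and 411 CPM in Bmal1cKO (2 libraries each). The test of whether the genotype difference depended on the Xist class called 0 of the 35 genes with edgeR, and 1 of 19646 overall (0.00509%). For Car12 that difference was 0.44 on the log2 scale, with an edgeR adjusted p of 0.736.

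Levels between genes were compared as CPM per kb of exon, using the merged exons of each gene. Merged exons can be much longer than a single transcript, at 5379 bases for Eno1 against 2027 in its longest coding transcript. For Pgk1 these lengths were 2244 and 1825 bases, so the order of the genes depends on the length used. In Bmal1WT 5 of the 6 lower enzymes and Tpi1 led, with Pkm at 75.1, Ldha at 73.2, Pgam1 at 68.6, Tpi1 at 60.7, Pgk1 at 60.6 and Eno1 at 59.4 CPM per kb. Slc2a1 followed at 34.0 CPM per kb, and Hif1a and Egln1 were alike at 21.6 and 21.6. Gapdh, at 6.09 CPM per kb, ranked with the muscle-type subunit Pfkm at 6.10. The part of its shared stretches in this level was not tested. Adm and Car9 were the lowest, at 0.839 and 0.582 CPM per kb.

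**Figure D5:**
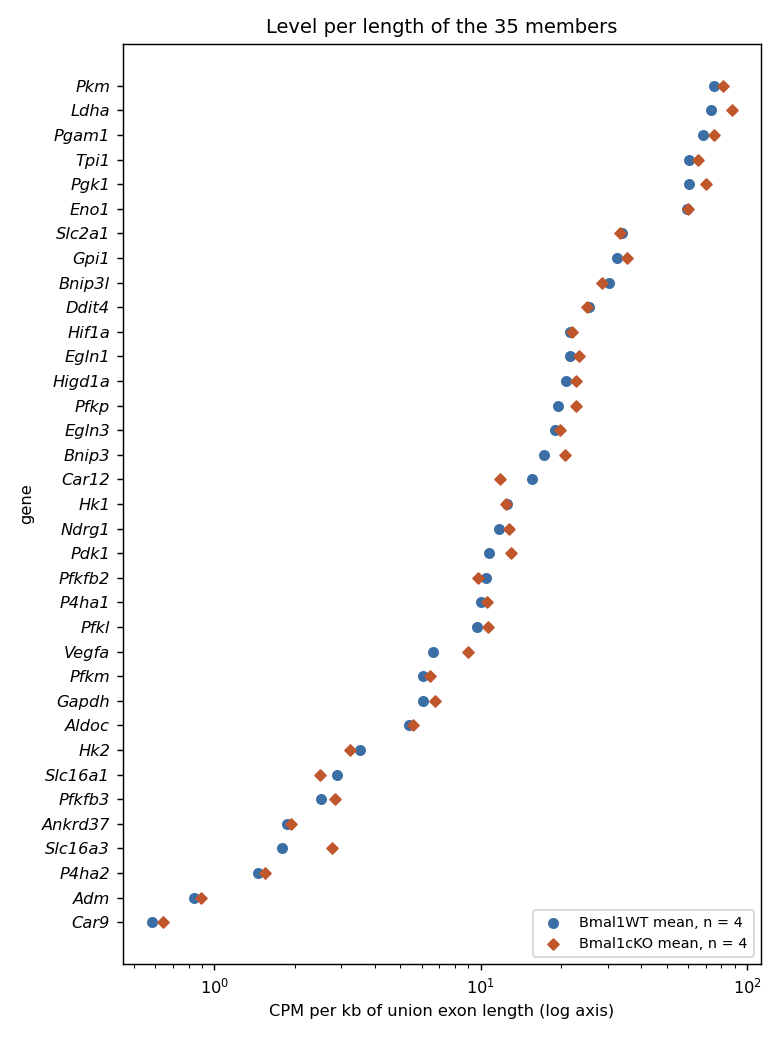
Points give the mean level of each of the 35 genes in CPM per kb of exon, on a log axis, in Bmal1WT (circles) and Bmal1cKO (diamonds), with 4 libraries each. Genes are ordered by Bmal1WT from Pkm at 75.1 down to Car9 at 0.582 CPM per kb, and the groups lie close together beside this span. The order rests on merged exon lengths and could differ with transcript lengths.

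The make-up of families was read as each gene's share of the family's CPM per kb (SD over 4 libraries, no test). The size of a share depends on the merged exon lengths used. For P4ha2 that length was 6239 bases, against 3060 in its longest coding transcript, and for P4ha1 4114 against 4043. Hk1 held 78.2 ± 3.36% in Bmal1WT and 79.7 ± 5.50% in Bmal1cKO of the hexokinase total. Pfkp held 55.4 ± 1.27% in Bmal1WT and 56.9 ± 2.43% in Bmal1cKO of phosphofructokinase, with Pfkl second at 27.4% in Bmal1WT. The collagen hydroxylases were the steadiest pair, with P4ha1 between 85.9 and 88.4% in all 8 libraries, Bmal1cKO replicate 3 included. The lactate carriers varied most: Slc16a3 held 39.9 ± 10.1% in Bmal1WT and 51.8 ± 16.3% in Bmal1cKO and reached 76.1% in Bmal1cKO replicate 3. Its share was 45.7 to 76.1% in the 4 libraries with Xist and 30.0 to 44.6% in the 4 without. In Bmal1cKO replicate 3, Pfkfb3 also had its highest share against Pfkfb2 (34.1%) and Bnip3 against Bnip3l (49.95%).

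Other genes of these pathways were read from 5 lists chosen by function: further glycolysis and gluconeogenesis genes, pyruvate dehydrogenase and its kinases, pentose phosphate enzymes, HIF signalling components and further hypoxia response targets. Of 92 genes matched, 84 were tested and 0 passed with edgeR, and 12 had an unadjusted p under 0.05, 5 higher and 7 lower in Bmal1cKO (8.30% of all genes in either direction). Their median log2 fold change was 0.00, with 43 positive and 41 negative, and 6 had groups that did not overlap (7.14%, against 5.15% of all genes). Bmal1cKO replicate 3 was highest for 13 of the 84 (15.5%), and for 8 of the 26 further hypoxia targets (30.8%, against 14.5% of all genes). Bmal1cKO replicate 1 was lowest for 11 of those 26 (42.3%, against 11.4%).

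The smallest p belonged to Slc6a6, the taurine transporter, at 372, 362, 262 and 325 CPM in Bmal1WT and 225, 186, 186 and 225 CPM in Bmal1cKO. All Bmal1cKO libraries lay below all Bmal1WT libraries (log2 fold change -0.68 ± 0.12, edgeR adjusted p = 0.0752). It was called by DESeq2 (adjusted p = 1.40e-05) and, with edgeR, under the replicate block (0.0169), with the Xist class as a covariate (0.0475), with no filter (0.0224) and without Bmal1WT replicate 3 (0.0163, 1.40e-05 to 0.839 over the alternatives). Slc2a4, the insulin-responsive glucose transporter GLUT4, was at 2.47, 1.44, 1.89 and 1.57 CPM in Bmal1WT and 2.72, 3.22, 4.01 and 4.68 CPM in Bmal1cKO. Its groups did not overlap (log2 fold change 0.99 ± 0.22, edgeR adjusted p = 0.181, DESeq2 adjusted p = 0.0058, 0.0058 to 0.845 over the alternatives). The next 4 by p were Pfkfb4, a relative of Pfkfb3 (log2 fold change -0.49 ± 0.17), G6pdx, the entry enzyme of the pentose phosphate pathway (-0.26 ± 0.09), Rora, a nuclear receptor of the clock (-0.34 ± 0.12), and Gys1, glycogen synthase (0.32 ± 0.11), with edgeR adjusted p of 0.439 to 0.453. The log2 differences of Slc6a6 and Slc2a4 were larger in size than those of all 35 genes, of which Slc16a3 had the largest at 0.62.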

How the data were processed

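Counts per gene of 8 libraries were used as the authors deposited them, as whole numbers without normalisation. Libraries were stranded, made from polyA RNA and read as single 51-base reads, per the labels' protocols. The submitters' processing notes name GRCm38 (mm10), featureCounts, STAR 2.7.10a and Trim Galore. The sources used here do not give the strand setting or the handling of reads with several matches. Of 34070 identifiers, 33974 had a name in GENCODE M21.

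Low genes were removed with filterByExpr (at least 10 counts, total of at least 15), libraries were scaled by TMM, and genotype was tested in edgeR 4.0.16 (R 4.3.3) with the two-sided quasi-likelihood F-test, with Benjamini-Hochberg adjustment over 19646 genes. Log2 fold changes are Bmal1cKO over Bmal1WT, given ± SE, and levels are CPM, given ± SD (n = 4). Depth was 35685261 to 50396156 counts per library. The SE of an edgeR log2 fold change was its size divided by the square root of F. The 95% intervals of the mean difference were built from that SE and rest on the variation between libraries. The members and lists were chosen with earlier results of these data known. Members with values in every library were those called, the 10 with the smallest unadjusted p, and Hif1a, Slc2a1, Hk2, Pkm, Ldha, Pdk1, Vegfa and Bnip3. P4ha1 was added after its values were seen. Of the further lists, the 6 genes with the smallest p were named.

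Alternatives were RLE size factors, DESeq2 1.42.0, voom in limma 3.58.1, no filter, at least 1 CPM in 4 libraries, the replicate number as a block, the Xist class (Xist over 10 CPM) as a covariate, each Xist class alone, and leaving out each library. Deviations from the group mean correlated across genes between libraries of the same number (0.33, 0.48, 0.39 and 0.37), each over the 0.1 set as the rule. The replicate block took the numbers to pair libraries, although the labels name no shared litter or day. The main fit held genotype alone, with no pairing. Pairs with different numbers but the same Xist class gave 0.15 to 0.35, 1 of them above a same-number pair, and pairs of different classes were all negative, so the correlations do not single out the numbers. No pair of libraries within a group agreed within sampling noise. The edgeR fit was run on simulated counts with 2-fold changes and no Xist class or replicate structure. Smaller differences, such as those of the 35 genes, were not simulated.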

Additional observations from a re-analysis of the deposited data

Results flagged for a closer look

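P4ha1 in Bmal1cKO was the 1 of 70 checks (35 genes in 2 groups of 4 libraries) in which a library lay far from the others. Replicate 3 was at 65.0 CPM, while the other 3 libraries lay at 35.5 to 37.4 CPM, so that the gap took 0.935 of the whole range. This is past the 95% limit of the Dixon test for 4 samples. Chance alone passes that limit in about 1 of 20 groups.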

How the results depend on the processing

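The number of the 35 genes called stayed at 0 under every alternative except DESeq2 (1, Car12). Over all genes, 34 were called, and 252 with DESeq2, 71 with no filter, 152 with the replicate block, 119 with the Xist class as covariate, 13 in the Xist libraries alone, 101 in those without Xist and 23 to 32 with a library left out. Of the further pathway genes, 0 were called, 2 with DESeq2, 1 each with no filter, the block or the Xist covariate, and 0 to 1 with a library left out. Groups did not overlap for 2 of the 35 genes, for 9 in the Xist libraries alone (25.7%, against 35.9% of all genes) and 11 in those without (31.4%, against 43.9%), where 2 libraries face 2. With a library left out the number was 2 to 7, against 7.11% to 9.57% of all genes. The median log2 fold change of the 35 genes was 0.11, and 0.02 to 0.20 over the alternatives. Under the replicate block, that is with the numbers taken as pairs, it was 0.08, and the block changed no call among the 35.

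The direction was the same in all 17 alternatives for 15 of the 35 genes, Car12, Pdk1, Ldha, Slc16a3, Vegfa and Bnip3 among them, and changed in some alternative for 20, none of them past the threshold. In the libraries without Xist the log2 fold changes that changed direction were Hk1 0.01, Pfkm -0.02, Aldoc -0.11, Eno1 -0.08, Pkm -0.06, Egln3 -0.17, Car9 -0.30, Ankrd37 -0.12 and P4ha1 -0.05, and in the Xist libraries alone Slc2a1 0.11, Ndrg1 -0.05, Ddit4 0.02 and Adm -0.39. With voom they were Car9 -0.03, Ankrd37 -0.04 and Adm -0.03, with the block Ankrd37 0.00 and with the Xist covariate Adm 0.00. With a library left out, the ranges were -0.03 to 0.01 for Hk1, -0.37 to 0.01 for Hk2, -0.06 to 0.11 for Aldoc, -0.05 to 0.10 for Eno1, -0.08 to 0.09 for Slc2a1, -0.51 to 0.04 for Slc16a1, -0.21 to 0.35 for Pfkfb3, -0.02 to 0.06 for Hif1a, -0.01 to 0.20 for Egln1, -0.14 to 0.28 for Egln3, -0.40 to 0.36 for Car9, -0.12 to 0.03 for Ddit4, -0.20 to 0.20 for Ankrd37, -0.18 to 0.16 for P4ha1, -0.16 to 0.21 for P4ha2, -0.23 to 0.33 for Adm and -0.02 to 0.24 for Higd1a. The causes were not tested. Counts of positive signs, of genes highest in Bmal1cKO replicate 3 (21 with RLE size factors too) and of SDs without that library were examined after seeing the data. Depth limits Car9 and Adm, with 444 and 457 counts over all libraries.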

Other observations

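Many counts were assigned to copies of the glycolytic and mitochondrial genes. Of the 35 genes, 11 share at least 5% of the 51-base stretches of their longest coding transcript with other genes, and 19 share none. Eno1b, a near copy of Eno1 annotated as protein coding, was at 265 ± 35.7 CPM in the Bmal1WT and 268 ± 28.6 CPM in the Bmal1cKO libraries (log2 fold change 0.01 ± 0.11), beside 319 ± 42.1 CPM in Bmal1WT and 324 ± 35.5 CPM in Bmal1cKO for Eno1. Pgk1-rs7, a processed pseudogene of Pgk1, was at 104 ± 17.6 CPM in the Bmal1WT and 121 ± 23.7 CPM in the Bmal1cKO libraries, with the same log2 fold change as Pgk1 to 2 decimals (0.22). Gm5452, a processed pseudogene of Ldha, was at 20.1 ± 1.80 CPM in the Bmal1WT and 24.9 ± 3.64 CPM in the Bmal1cKO libraries (0.31 ± 0.11, edgeR adjusted p = 0.466), with a difference of the same sign as Ldha. Gm16439, a processed pseudogene of Bnip3, was highest in Bmal1cKO replicate 3, at 18.4 CPM against 9.72 to 12.6 CPM in the other libraries, as was Bnip3. Whether these counts come from the copies or from the parent genes was not tested.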
